A study of Mus musculus with 9 samples.

Results

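The genes of the interleukin-6 (IL-6) family measured here are 10 of the 55401 genes in the deposited table of mouse brain RNA. They were chosen by gene name and not by a cut on their values, but with earlier results of these data known. Il6, Osm, Lif, Clcf1 and Cntf encode cytokines (ligands), Il6ra, Il6st and Lifr encode receptor chains, and Stat3 and Socs3 encode a transcription factor and an inhibitor of the same pathway. Each name matched exactly 1 row, so all 10 genes were found.

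The series holds 9 libraries of RNA from mouse brain labelled basal ganglia, in 3 groups of 3, all of wild-type genotype. The paper describes adult male C57BL mice, in which intracerebral hemorrhage (ICH) was made by injecting the animal's own blood. Sham mice had the needle inserted without blood, and their libraries are labelled day 3. ICH mice given a vehicle are also labelled day 3 and are called ICH here. ICH mice treated with Laminaria, as the labels name it, are labelled day 4, day 5 and day 6 for libraries 1, 2 and 3, so treatment and day cannot be told apart in this group. The paper describes no Laminaria group but one given Leukadherin-1 (LA-1), an agonist of complement receptor 3, so the identity of the agent is uncertain. The rising days could also be an error of entry in the labels, and neither doubt could be settled from the files. Nothing in the labels or the paper ties a library to 1 mouse, and the p-values therefore cover the variation among libraries, which may be technical. The model is 1 injection of blood into the basal ganglia. The paper describes the sequenced ICH tissue as peri-hematomal, from the hematoma edge, at 3 days. The RNA is from bulk tissue, in which more cells of a type and more RNA per cell cannot be told apart.

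Cytokines of the IL-6 family signal through receptors that share the chain gp130, encoded by Il6st. Each ligand is recognised by its own chain, such as the IL-6 receptor encoded by Il6ra or the LIF receptor encoded by Lifr. Janus kinases bound to gp130 then phosphorylate STAT3, which enters the nucleus and switches on target genes, among them Socs3, whose product binds gp130 and the kinases and ends the signal. In injured brain, activated microglia, invading leukocytes and astrocytes are known sources or targets of these cytokines.

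Total counts were 51307799 to 74649716 per library. Low counts piled up at multiples of about 3.74, so 1 sequenced fragment appears to add several counts, and 3 steps (11.2 counts in 1 library) are taken as the floor below which a level is not measurable. This floor covers counting error only. Levels of 1 gene are compared as CPM (counts brought to equal library size with TMM factors), and levels of different genes as FPKM, which divides by transcript length. The 6 genes that define striatal medium spiny neurons, the main cell type of this region, were all high enough to be tested, with a summed level of 1961 to 3355 CPM in the sham libraries, 1476 to 2194 in the ICH libraries and 1337 to 2587 in the Laminaria libraries.

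The sequences before the start of 3 of the genes are shown because they hold the letters that transcription factors of this pathway and of inflammation are known to bind. Socs3 is on the minus strand of chromosome 11, and the 165 bases at chr11:117969452-117969616 in the mouse build GRCm38.p6 lie before its RefSeq start. This stretch also lies within an intron of a longer Socs3 transcript. Capitals mark the match to TTCNNNGAA, the letters known to be bound by STAT proteins. Lif is on the plus strand, and its 239 bases are at chr11:4257318-4257556. Il6, also on the plus strand, is shown with 250 bases at chr5:30012864-30013113. In Lif the capitals mark a match to TGANTCA (AP-1), and in Il6 they mark, in order, matches to TGANTCA, to TTNNGCAA (C/EBP) and to the NF-kappaB motif.

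Socs3: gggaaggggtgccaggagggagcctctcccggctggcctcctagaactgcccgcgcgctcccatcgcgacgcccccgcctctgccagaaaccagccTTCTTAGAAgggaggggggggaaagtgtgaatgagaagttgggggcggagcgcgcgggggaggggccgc

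Lif: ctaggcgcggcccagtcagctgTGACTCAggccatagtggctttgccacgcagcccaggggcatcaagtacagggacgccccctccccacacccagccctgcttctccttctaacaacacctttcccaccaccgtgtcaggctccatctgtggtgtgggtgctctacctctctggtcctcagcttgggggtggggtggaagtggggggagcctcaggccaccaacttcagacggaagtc

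Il6: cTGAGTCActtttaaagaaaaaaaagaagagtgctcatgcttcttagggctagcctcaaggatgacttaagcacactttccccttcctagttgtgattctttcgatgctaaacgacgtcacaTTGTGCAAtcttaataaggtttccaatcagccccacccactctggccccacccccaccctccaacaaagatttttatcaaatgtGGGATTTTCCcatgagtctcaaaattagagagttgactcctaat

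The 250 bases before the start were searched on both strands for these 4 motifs in 32851 RefSeq promoter windows, and 8 of the 10 genes had a window (Osm and Clcf1 did not). TTCNNNGAA was found in 7.02% of all windows and, among the 8 genes, in Socs3, at 154 to 146 bases before the start. TGANTCA was present in 6.75% of windows and in those of Il6, Lif and Cntf. TTNNGCAA occurred in 9.56% of windows and the NF-kappaB motif in 0.356%, and among the 8 genes each was found in Il6. These matches describe letters only and are not evidence of binding.

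Among the ligands, Clcf1 rose after ICH, and Osm, Lif and Cntf were higher in every ICH library than in every sham library without passing the test. Il6 was at or near the floor in 8 of 9 libraries. The comparison of ICH with sham asks how the hemorrhage itself changes these transcripts at day 3. Counts of the 16414 genes that averaged 0.5 FPKM or more in the 6 libraries entered edgeR's quasi-likelihood test, p-values were adjusted after Benjamini and Hochberg, and an adjusted p under 0.05 was taken as changed. Differences are given as the log2 ratio of the fitted levels (log2 fold change) with its standard error (SE).

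Clcf1 (ENSMUSG00000040663, chromosome 19 from 4214238 to 4223490) encodes cardiotrophin-like cytokine factor 1, a ligand of the CNTF receptor. Its level was 0.643, 1.66 and 2.41 CPM in sham 1, 2 and 3, and 4.75, 9.64 and 9.98 CPM in ICH 1, 2 and 3. The lowest ICH library thus lay above the highest sham library, and ICH 2 and ICH 3 were close together. Clcf1 rose 5.17-fold, a log2 ratio of 2.37 (SE 0.52, adjusted p = 0.039 by edgeR). In the Laminaria libraries it was 5.53, 3.77 and 10.2 CPM, all above the sham libraries and overlapping those of ICH.

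Osm (ENSMUSG00000058755, chromosome 11 from 4236420 to 4241026) encodes oncostatin M, a cytokine made chiefly by myeloid and T cells. It had 0, 14 and 9 counts in the sham libraries, of which only sham 2 was above the floor, and 58, 298 and 105 counts in the ICH libraries. The levels were 0, 0.237 and 0.139 CPM in sham and 1.03, 3.997 and 1.66 CPM in ICH. Every ICH library was above every sham library, and ICH 2 was the highest. With a mean of 0.453 FPKM, Osm was just below the limit for testing, and Lif, at 0.516, was just above it. The exact permutation test on CPM gave p = 0.1, the smallest that 3 against 3 libraries allow. When all genes with counts were tested, its log2 ratio was 4.14 (SE 1.01, adjusted p = 0.066 by edgeR). The Laminaria libraries held 1.25, 1.03 and 1.26 CPM, which is the narrowest spread of the 3 groups relative to its mean and above all sham libraries.

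Lif (ENSMUSG00000034394, chromosome 11 from 4257557 to 4272514), the neighbour of Osm in the genome, encodes leukemia inhibitory factor. It stood at 1.10, 0.203 and 1.31 CPM in the sham libraries and at 1.88, 7.54 and 3.38 CPM in the ICH libraries. The groups did not overlap, with ICH 2 again the highest and ICH 1 nearest to sham. The log2 ratio was 2.28 (SE 0.76), and with an adjusted p = 0.10 by edgeR it did not pass. Lif measured 2.34, 1.66 and 3.95 CPM in the Laminaria libraries, above all sham libraries.

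Cntf (ENSMUSG00000079415, chromosome 19 from 12763660 to 12765632) encodes ciliary neurotrophic factor, which astrocytes are known to make. Its sham levels were 1.203, 1.27 and 1.296 CPM, a narrow range, against 1.68, 4.80 and 3.43 CPM in the ICH libraries. All ICH values were above all sham values. A log2 ratio of 1.39 (SE 0.38, adjusted p = 0.065 by edgeR) did not pass the test. In the Laminaria libraries Cntf was 1.75, 2.69 and 4.01 CPM. Cntf lies inside a longer gene model, a Zfp91 read-through on the same strand (ENSMUSG00000118491), which had 188 and 429 counts in ICH 1 and ICH 3, 124 in Laminaria library 1 and 0 in the other 6 libraries. Reads of the 2 models cannot be told apart with certainty, so the values of Cntf are uncertain to that extent.

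Il6 (ENSMUSG00000025746, chromosome 5 from 30013114 to 30019981), the ligand that gives the family its name, had 16, 0 and 4 counts in the sham libraries. In the ICH libraries it had 9, 264 and 0 counts, so that 264 of the 273 counts of the group were in ICH 2. Il6 counts were 4, 15 and 4 in the Laminaria libraries. Its level in ICH 2 was 3.54 CPM, and the other 8 libraries were between 0 and 0.235 CPM. The groups overlapped (exact permutation test of ICH against sham, p = 0.7), Il6 was too low for the test across genes, and a difference between the groups was not detectable at this depth.

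**Figure D1:**
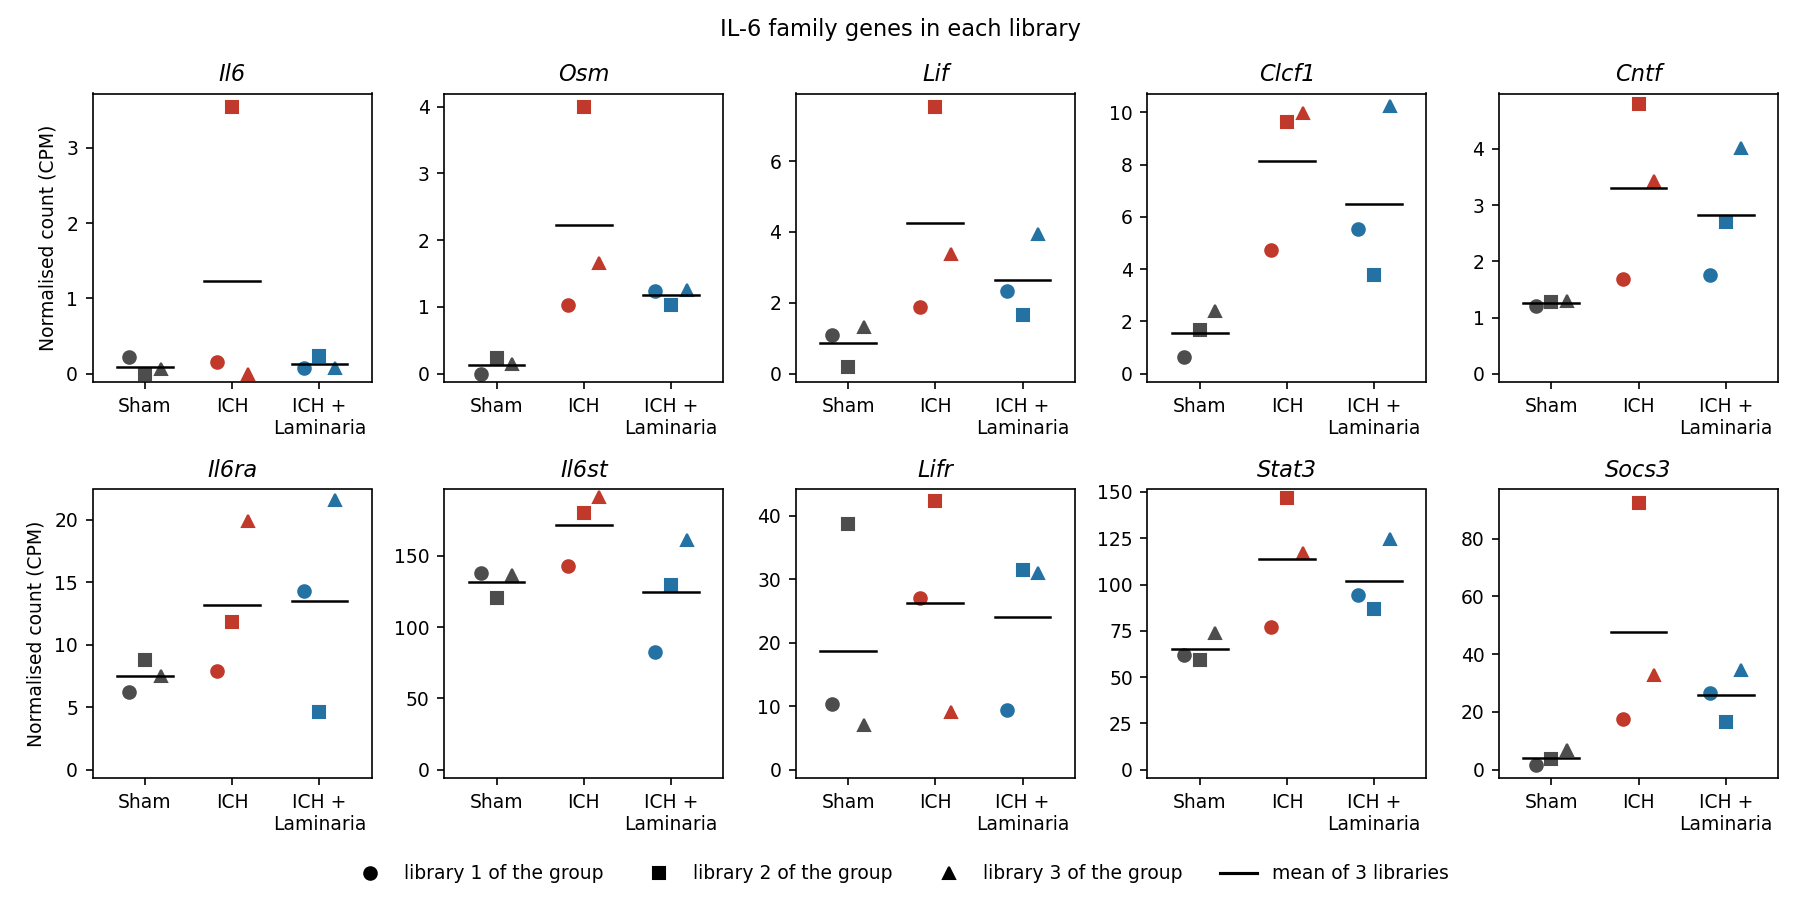
Normalised count (CPM, vertical axis, starting at about 0) of each of the 10 genes in every library, with 3 libraries in each of the sham, ICH and Laminaria-treated ICH groups. Circles, squares and triangles are libraries 1, 2 and 3, and the line is the mean. ICH 2 is the highest ICH library for Il6, Osm, Lif and Socs3, and Lifr spans 6.99 to 38.7 CPM within the sham group alone.

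None of the receptor chains Il6st, Il6ra and Lifr passed the test after ICH. Il6st (ENSMUSG00000021756, chromosome 13 from 112464070 to 112510086), which encodes the shared chain gp130, was 138, 120 and 137 CPM in the sham libraries and 143, 180 and 191 CPM in the ICH libraries. The ICH libraries were all above the sham libraries, ICH 1 by little. Its log2 ratio of 0.38 (SE 0.12, adjusted p = 0.092 by edgeR) was the smallest of the 8 genes tested. The Laminaria libraries had 82.9, 130 and 161 CPM of Il6st, from below all sham libraries to above them.

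Il6ra (ENSMUSG00000027947, chromosome 3 from 89864059 to 89913196) encodes the IL-6 binding chain, which leukocytes and microglia are known to carry. Its level was 6.21, 8.75 and 7.51 CPM in sham and 7.92, 11.8 and 19.9 CPM in ICH. ICH 1 fell within the sham range, so the groups overlapped. The log2 ratio was 0.82 (SE 0.33, adjusted p = 0.16 by edgeR). Laminaria library 2 had the lowest Il6ra level of all 9 libraries, 4.66 CPM, and Laminaria library 3 the highest, 21.6 CPM, with 14.3 CPM in library 1.

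Lifr (ENSMUSG00000054263, chromosome 15 from 7090614 to 7197489) encodes the receptor chain for LIF, which also takes part in the receptors for CNTF and CLCF1. It was 10.4, 38.7 and 6.99 CPM in the sham libraries and 27.0, 42.4 and 9.14 CPM in the ICH libraries. Sham 2 was thus above ICH 1 and ICH 3, and the spread within each group was larger than the difference between them. Lifr had a log2 ratio of 0.50 (SE 0.76, adjusted p = 0.71 by edgeR), which became 1.58 without sham 2 and -0.06 without ICH 2. The Laminaria libraries held 9.45, 31.5 and 31.0 CPM.

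Downstream of the receptors, Socs3 rose after ICH, and the fitted difference of Stat3 was smaller and did not pass. Stat3 (ENSMUSG00000004040, chromosome 11 from 100885098 to 100939540) was 62.1, 59.5 and 74.0 CPM in the sham libraries and 77.4, 147 and 117 CPM in the ICH libraries. Its groups did not overlap, although ICH 1 exceeded sham 3 by only a few CPM. The log2 ratio of Stat3 was 0.80 (SE 0.22, adjusted p = 0.067 by edgeR). In the Laminaria libraries it measured 94.3, 86.9 and 125 CPM, all above sham.

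Socs3 (ENSMUSG00000053113, chromosome 11 from 117966079 to 117970047), the inhibitor whose gene is a known STAT3 target and whose start region is printed above, had the largest log2 ratio of the 8 genes tested. It was 1.58, 3.65 and 6.86 CPM in the sham libraries and 17.5, 92.5 and 32.8 CPM in the ICH libraries. Every ICH library was above every sham library, and ICH 2 alone exceeded the other ICH libraries together. Socs3 rose 11.8-fold, a log2 ratio of 3.56 (SE 0.78, adjusted p = 0.038 by edgeR). In the Laminaria libraries it stood at 26.7, 16.4 and 34.5 CPM, again above all sham libraries.

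In total, 8 of the 10 genes were tested in ICH against sham, 2 were called higher and 0 lower, against 10.6% of all 16414 genes called in either direction. Unadjusted p was under 0.05 for 7 of the 8, against 4846 of all 16414 genes. Groups did not overlap, with ICH higher, for 7 of the 10 genes, of which Osm was not tested. Among the 8 tested it was 6, against 19.5% of all genes tested. The median log2 ratio was 1.11 over the 8 tested genes and 0.01 over all genes tested. Genes could reach the limit for testing through their level in ICH alone, as Clcf1 and Lif did with 0.352 and 0.171 FPKM in sham. The counts called, the counts without overlap and the median are all subject to this.

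These calls changed when single libraries were left out, which also leaves 2 libraries in a group. The part of a particular library and that of having fewer libraries were not told apart. Socs3 and Clcf1 were called in all 9 alternative fits that used every library, with adjusted p from 8.2e-04 to 0.045 for Socs3 and from 6.7e-05 to 0.048 for Clcf1. Without ICH 1, 6 of the genes were called (Clcf1, Cntf, Il6ra, Il6st, Socs3 and Stat3), against 2741 of all 16414 genes. Without any 1 of the other 5 libraries none was called by edgeR. In these 5 fits 4 to 6 of the 8 had an unadjusted p under 0.05, against 3762 to 4092 of all genes. Over all genes the count of 1737 fell to 0 without sham 1, ICH 2 or ICH 3, to 2 without sham 2 and to 472 without sham 3. DESeq2 with all libraries called 5 of the genes, adding Cntf, Lif and Stat3, against 3547 of all genes. When 1 library was left out, the log2 ratio of Socs3 ranged from 2.62 (without ICH 2) to 4.20 (without sham 3). That of Clcf1 ranged from 1.99 to 2.83.

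**Figure D2:**
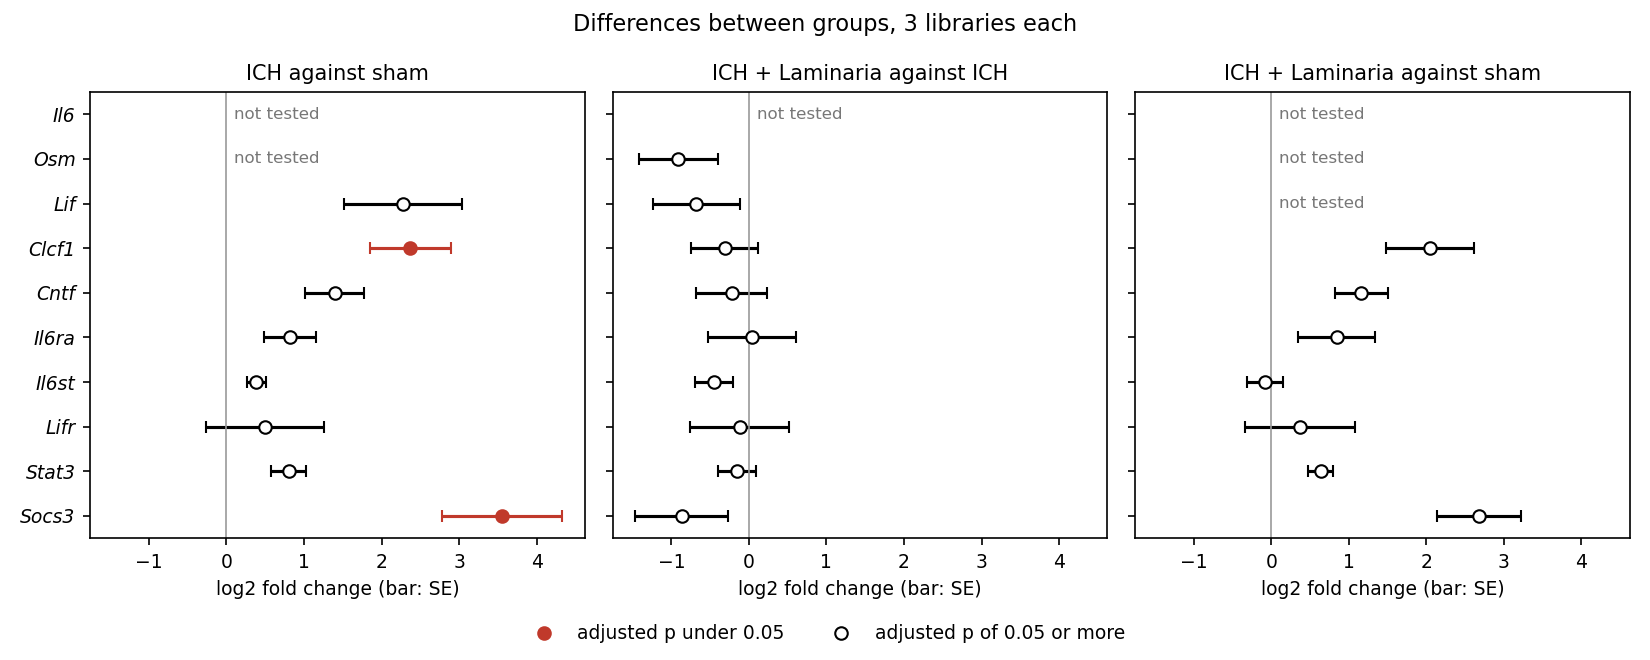
Log2 ratio, or fold change (horizontal axis) with its standard error for each gene (vertical axis) in the 3 comparisons, 3 libraries in each group. Filled red points mark an adjusted p under 0.05, which only Clcf1 (2.37) and Socs3 (3.56) in ICH against sham have, and genes under the limit for testing are written as not tested.

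Mean levels per transcript length put the genes in a different order in each group, although many neighbouring ranges overlapped. In the sham libraries Il6st (10.2 ± 0.778 FPKM, SD, n = 3 as for the other levels here) and Stat3 (5.88 FPKM) were the highest, without overlap between their ranges or with the next gene. Lifr, Socs3 and Cntf followed at 1.49, 1.1998 and 0.996 FPKM, with overlapping ranges, and then Il6ra at 0.744, whose range was below that of Cntf. Clcf1 (0.352), Lif (0.171), Osm (0.046) and Il6 (0.032 FPKM) were the lowest, and neighbours among these 4 overlapped.

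In the ICH libraries Socs3 had the highest mean, 14.5 ± 12.03 FPKM, and its range overlapped those of Il6st (13.7 FPKM) and Stat3 (10.5 FPKM). Only ICH 2 (28.2 FPKM) put Socs3 first, and in ICH 1 (5.43 FPKM) and ICH 3 (9.98 FPKM) it was below both. Below a gap came Cntf at 2.71, Lifr at 2.15, Clcf1 at 1.88 and Il6ra at 1.35 FPKM. Lif and Osm both had 0.861 FPKM and Il6 had 0.441, and from Cntf down each gene overlapped the next. In the Laminaria libraries Il6st (10.04 FPKM), Stat3 (9.55) and Socs3 (8.002) overlapped at the top, followed below a gap by Cntf at 2.34 FPKM. Il6, at 0.046 FPKM, was lower than Osm, at 0.457 FPKM, in every Laminaria library. In each group the receptor chain gp130 and Stat3 were thus present at higher levels per length than every ligand.

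**Figure D3:**
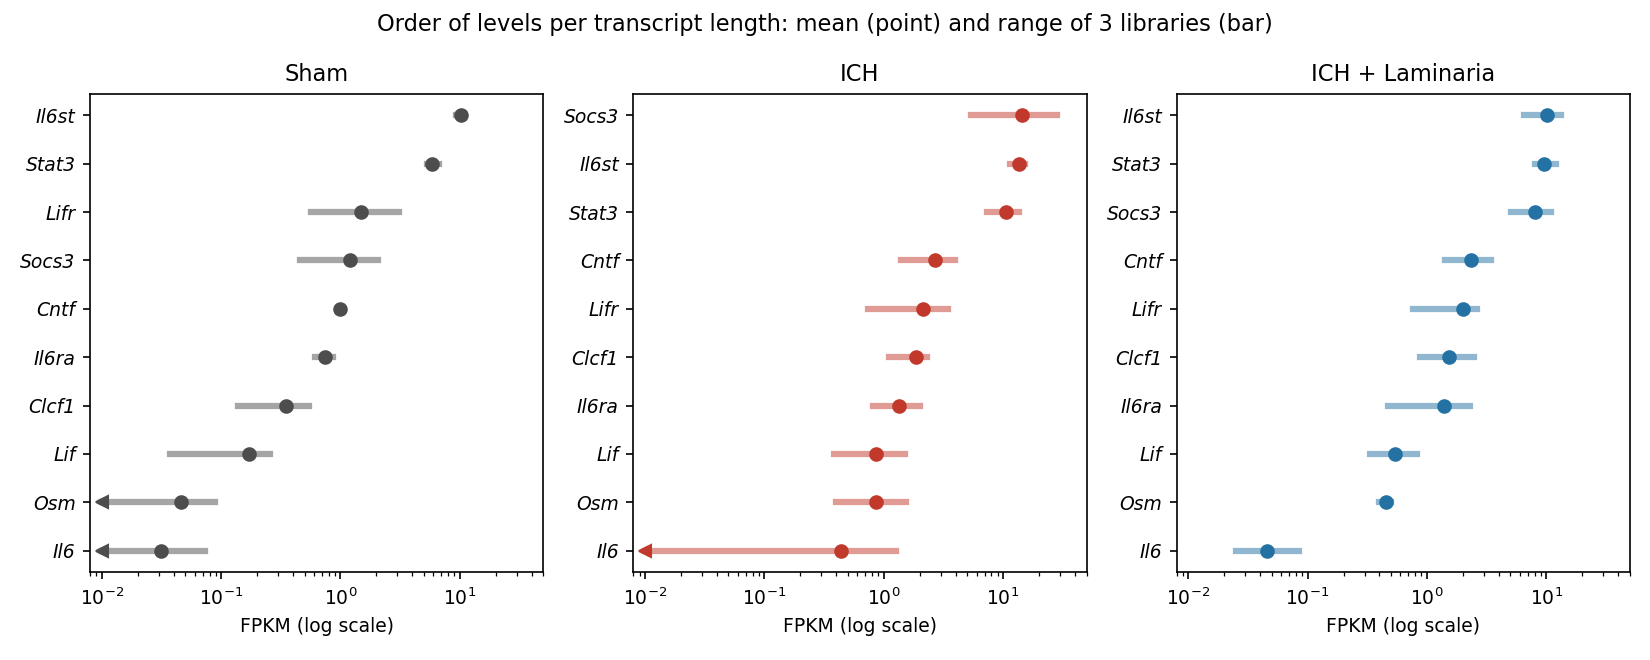
FPKM (horizontal axis, log scale) of the 10 genes in each group, ordered by mean, with points for the mean of 3 libraries and bars for their range. A triangle at the left edge marks a range that reaches 0. Il6st and Stat3 lead in the sham group with 10.2 and 5.88 FPKM, and Socs3 moves from 1.1998 in sham to 14.5 FPKM in ICH.

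The order of the libraries within each group was also recorded for the members. ICH 2 was the highest ICH library for 7 of the 10 genes and ICH 3 for the other 3. ICH 1 was the lowest for 8 genes, and ICH 3 was the lowest for Il6 and Lifr. In the Laminaria group, library 3 was the highest for 8 genes, and library 2 was the lowest for 6 and library 1 for 4. The highest sham library was sham 3 for 5 genes, sham 2 for 3 and sham 1 for 2. The same order was not counted over all genes, so it is not shown to be particular to the members. As the days are uncertain, no time course is read from this order.

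Markers of other cells were also measured, and within the ICH group the myeloid, neutrophil and astrocyte sums were lowest in ICH 1, as were 8 of the members, whereas the red blood cell sum was lowest in ICH 3 and the choroid plexus sum in ICH 2. The summed level of 8 pan-myeloid genes was 195 to 335 CPM in the sham libraries and 536, 1047 and 975 CPM in ICH 1, 2 and 3, and 8 of 8 rose after ICH. The Laminaria libraries had 563, 487 and 882 CPM of these genes. Of 7 neutrophil genes, 5 were tested and 3 rose, with a sum of 7.40 to 12.9 CPM in sham, 21.1, 83.6 and 43.0 CPM in ICH, and 24.9, 18.4 and 65.3 CPM in the Laminaria libraries. Of these sums, Csf3r alone gave 7.10, 7.48 and 12.8 CPM in sham and 19.1, 40.8 and 34.8 CPM in ICH. In the Laminaria libraries Csf3r was 19.9, 15.9 and 44.9 CPM. It was thus the larger part of the neutrophil sum in every library but ICH 2. The defining neutrophil gene Ly6g had 0 counts in 7 of the 9 libraries.

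Astrocyte genes summed to 1385 to 2024 CPM in sham, to 3242, 6077 and 5911 CPM in ICH 1, 2 and 3 and to 3599, 2885 and 5571 CPM in the Laminaria libraries, with 3 of 6 higher after ICH. Gfap alone was 323, 446 and 918 CPM of this sum in sham and 1952, 4364 and 4302 CPM in ICH. Besides Gfap, Aqp4 and Aldh1l1 rose, Slc1a3 did not pass, and S100b and Gja1 overlapped between ICH and sham. The 5 red blood cell genes summed to 12.5 to 16.3 CPM in sham, 33.1, 143 and 27.1 CPM in ICH, and 76.5, 24.4 and 38.4 CPM in the Laminaria libraries, with none of the 4 tested called. Choroid plexus genes (3, of which none was called) summed to 96.9 to 1263 CPM in sham, 4799, 1806 and 2488 CPM in ICH 1, 2 and 3, and 79.4, 2353 and 2159 CPM in Laminaria libraries 1, 2 and 3. ICH 1 was thus the highest for this sum, and Laminaria library 1, the lowest of its group for Il6st, was far below the other 2. ICH 2 was the highest ICH library for the myeloid, neutrophil, astrocyte and red blood cell sums. The part of cell content in the levels of Osm, Lif, Clcf1, Cntf, Stat3 and Socs3 was not tested.

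**Figure D4:**
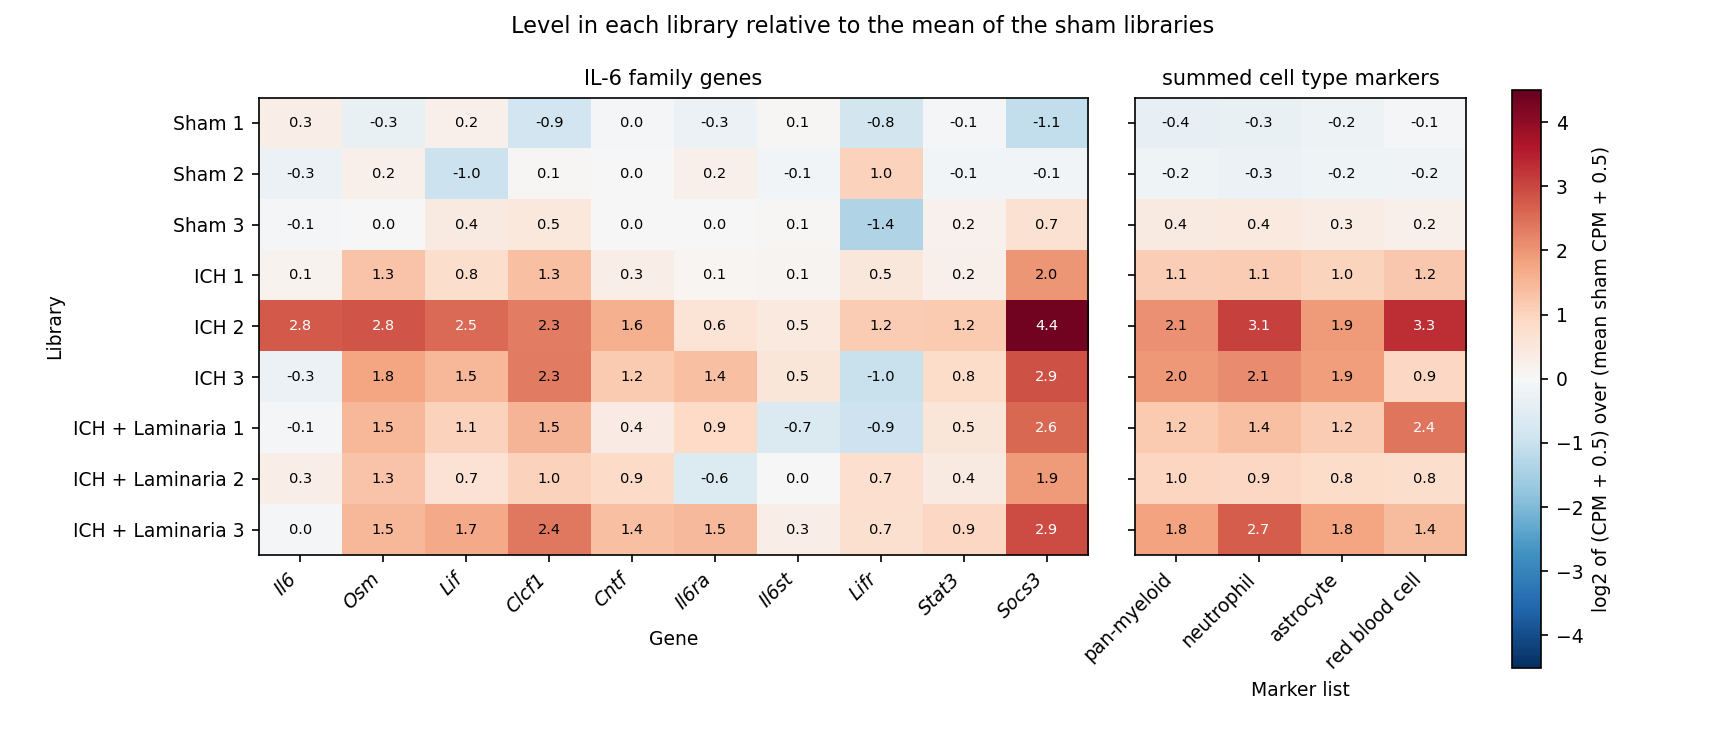
Each library (rows) by gene or summed marker list (columns), coloured and labelled by the log2 ratio of its level to the mean of the 3 sham libraries, with 0.5 CPM added to each. ICH 2 has the darkest colours for Socs3 (92.5 CPM) and for the neutrophil (83.6 CPM) and red blood cell (143 CPM) sums, and ICH 1 the palest of the ICH libraries for most genes.

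For the 7 family genes tested in all 3 comparisons, the genes with the nearest pattern over the 9 libraries were found as those with the smallest root mean square difference between centred log2(CPM + 0.5) profiles. For Socs3 these were Tlr2 (0.32), a receptor for bacterial lipoproteins, Gpr84 (0.34) and C3ar1 (0.35), the receptor for complement fragment C3a. Clcf1 was nearest to the complement gene C4b (0.14), to Naip2 (0.15) and to Btk (0.17), a kinase of B cells and myeloid cells. Stat3 was nearest to Cdk6 (0.07), Rras (0.07) and Prim1 (0.08). Cntf lay nearest to Myc (0.13), Hilpda (0.16) and Grap (0.16), and Il6st to Txndc5 (0.10), Lsm10 (0.11) and Snrpe (0.13). Il6ra was nearest to Cfap161 (0.24), Gm14648 (0.27) and Gbgt1 (0.30). No gene was close to Lifr, whose nearest were Ube2l3 (0.52), Ccn3 (0.57) and Nagpa (0.59). These values describe likeness over 9 libraries that share their groups.

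Of 39 other genes of the pathway, 33 were tested in ICH against sham, of which 11 rose and none fell (10.6% of all genes were called). The count was 18 without ICH 1, 5 without sham 3 and 0 without any of the other 4 libraries. In those 4 fits 18 to 20 had an unadjusted p under 0.05, against 3762 to 4092 of all 16414 genes. DESeq2 called 19 higher and 1 lower, against 2051 higher and 1496 lower over all genes. Among the other ligands of the family, 2 of 5 were high enough to be tested and 1 rose. Ebi3, the subunit that IL-27 shares with IL-35, was 0.895, 0.862 and 0.926 CPM in sham and 1.74, 2.39 and 2.35 CPM in ICH, a log2 ratio of 1.27 (SE 0.24, adjusted p = 0.029 by edgeR). Ctf1, which encodes cardiotrophin 1, did not pass (log2 ratio 0.82, adjusted p = 0.45), and Il11, Il27 and Ctf2 were too low to be tested.

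Of 5 other receptor chains, 3 were tested and 1 rose. Osmr, which pairs with gp130 to form the receptor for oncostatin M, was 7.86, 8.87 and 11.97 CPM in the sham libraries and 16.7, 48.8 and 38.8 CPM in the ICH libraries. Its groups did not overlap, and the log2 ratio was 1.86 (SE 0.39, adjusted p = 0.035 by edgeR). In the Laminaria libraries Osmr was 29.9, 17.2 and 45.4 CPM. Cntfr, the chain that binds CNTF, had a log2 ratio of 0.00 (SE 0.20), and Il11ra1 had 0.44 (SE 0.12, adjusted p = 0.059).

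The kinases and signalling proteins bound to the receptors numbered 6, all tested, of which 0 were called by edgeR, 1 by DESeq2 and 2 had an unadjusted p under 0.05. Ptpn11, a phosphatase that binds gp130, had a log2 ratio of -0.29 (SE 0.08, adjusted p = 0.058 by edgeR), and the kinase gene Tyk2 had 0.44 (SE 0.17, adjusted p = 0.14). Jak1 and Jak2, kinases that bind gp130, had log2 ratios of -0.02 and -0.29 (adjusted p = 0.91 and 0.305). Of 6 inhibitors of cytokine receptor signalling other than Socs3, 5 were tested and 1 rose, Ptpn6, a phosphatase of blood cells and microglia, with a log2 ratio of 2.22 (SE 0.35, adjusted p = 0.023). Socs2, an inhibitor of growth hormone signalling, had a log2 ratio of -0.39 (adjusted p = 0.16), and Socs1 was too low to be tested. Of the 2 proteases that release the IL-6 receptor from the cell surface, Adam17 rose with a log2 ratio of 0.78 (SE 0.18, adjusted p = 0.042), and Adam10 had 0.40 (adjusted p = 0.056).

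Of 15 genes known to be induced through STAT3, all were tested and 7 rose, against 10.6% of all genes called. The median log2 ratio was 2.43, against 0.01 over all genes tested. The list was chosen with earlier results of these data known. Its genes are among the 33 above, of which 0 were called without sham 1, sham 2, ICH 2 or ICH 3. The genes that rose were Lcn2, Serpina3n, Hp, Gfap, Cebpd, Il4ra and Cebpb. Lcn2, which encodes the iron-carrier binding protein lipocalin 2, was 1.41, 4.02 and 5.40 CPM in the sham libraries and 52.5, 266 and 139 CPM in the ICH libraries, a log2 ratio of 5.40 (SE 0.77, adjusted p = 0.022 by edgeR). Serpina3n, a protease inhibitor of reactive astrocytes, was 23.0, 37.6 and 110 CPM in sham and 435, 1270 and 928 CPM in ICH (log2 ratio 3.94, adjusted p = 0.026). As with Socs3, both were highest in ICH 2 and lowest in ICH 1 within the ICH group.

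Saa3, an acute phase protein, and Timp1, a metalloproteinase inhibitor, had log2 ratios of 6.71 and 4.19 without passing (adjusted p = 0.051 and 0.053). Junb and Bcl2l1 had values below 0 (-0.22 and -0.31, adjusted p = 0.75 and 0.71). Several of these genes are also induced by other pathways, and Gfap is itself among the astrocyte markers above.

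**Figure D5:**
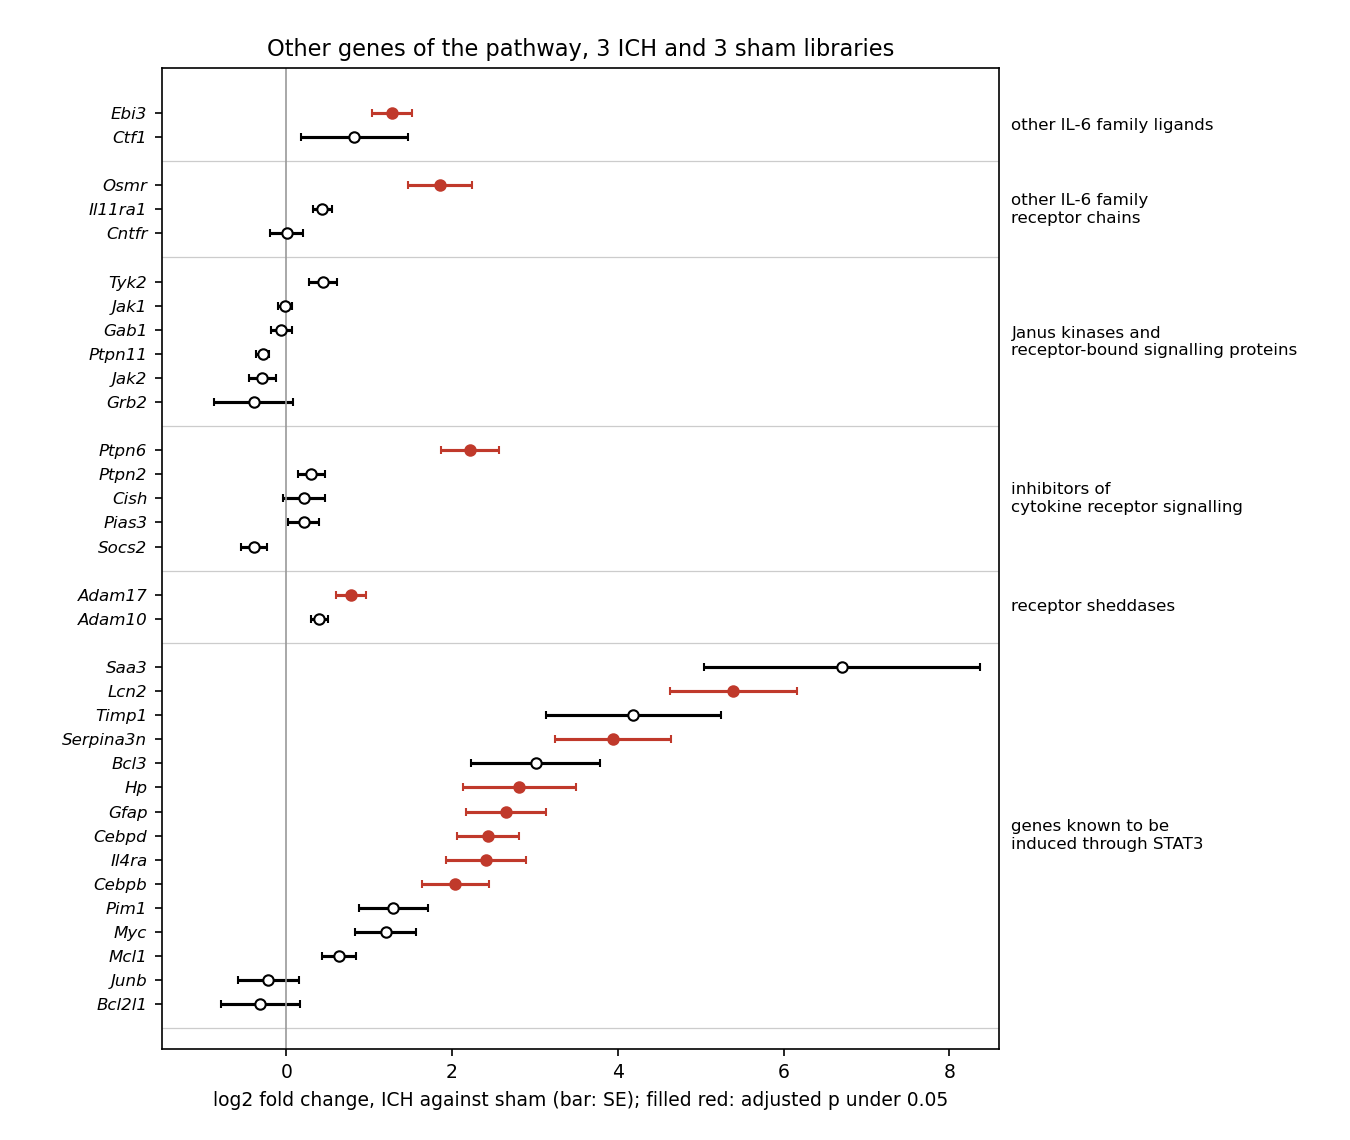
Log2 ratio of ICH to sham (horizontal axis) with its standard error for the tested genes of 6 lists of the pathway (vertical axis), 3 libraries in each group. Red points are genes with an adjusted p under 0.05. The 7 red genes of the STAT3-induced list reach from 2.04 (Cebpb) to 5.40 (Lcn2), and of the kinases Jak1 lies at -0.02, Jak2 at -0.29 and Tyk2 at 0.44.

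Laminaria-treated ICH libraries (labelled days 4 to 6) were compared with ICH libraries (labelled day 3) to see whether the members differ with treatment, which here includes any difference in day. Of the 10 genes, 9 were tested among 16654, 0 were called by edgeR, by DESeq2 or by limma, and 0 had an unadjusted p under 0.05. Over all genes 0.018% were called by edgeR, and 560 of 16654 had an unadjusted p under 0.05. The groups overlapped for all 10 genes. The log2 ratio was below 0 for 8 of the 9, and the median was -0.31, against 0.00 over all genes tested.

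The differences were, on the log2 scale, -0.91 for Osm (SE 0.50), -0.87 for Socs3 (SE 0.60) and -0.68 for Lif (SE 0.56), all with an adjusted p = 0.95 by edgeR. For Socs3 and Lif only ICH 2 was above all Laminaria libraries, and for Osm both ICH 2 and ICH 3 were. Without ICH 2 the log2 ratio of Socs3 was 0.04 and that of Lif 0.01. The receptor chain Il6st had -0.45 (SE 0.24) and Clcf1 -0.31 (SE 0.43). The remaining genes, Cntf (-0.22), Stat3 (-0.15), Lifr (-0.12) and Il6ra (0.04), had SEs of 0.24 to 0.64. With SEs of this size a moderate difference in either direction was not detectable, and the genes are not shown to be alike in the 2 groups. Of the 33 other pathway genes tested here, 0 were called and 0 had an unadjusted p under 0.05 by edgeR, and DESeq2 called 0.

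Laminaria-treated ICH libraries were also compared with the sham libraries, the group that ICH was compared with too, so the 2 comparisons share their controls. Of 7 genes tested among 16405, 0 were called by edgeR or limma and 4 had an unadjusted p under 0.05, while DESeq2 called 4 (Clcf1, Cntf, Socs3 and Stat3). Over all genes 0.0183% were called by edgeR and 2944 of 16405 had an unadjusted p under 0.05. DESeq2 called 998 of them higher and 314 lower. Groups did not overlap, with Laminaria higher, for 6 of the 10 genes. Among the 7 tested it was 4, against 14.9% of all genes tested. Here too genes could reach the limit for testing through their level in the Laminaria libraries alone.

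The 6 genes were Osm, Lif, Clcf1, Cntf, Stat3 and Socs3. Socs3 had a log2 ratio of 2.68 (SE 0.54, adjusted p = 0.098 by edgeR), beside 3.56 in ICH. Clcf1 had 2.05 (SE 0.56, adjusted p = 0.15), beside 2.37, and Cntf had 1.16 (SE 0.34, adjusted p = 0.17), beside 1.39. Stat3 was at 0.64 (SE 0.16, adjusted p = 0.13), beside 0.80. Il6st was at -0.08 (SE 0.23), with Laminaria library 1 below and library 3 above the sham libraries. Osm and Lif were below the limit for testing in these 6 libraries, with an exact permutation p = 0.1 each, the smallest possible.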

How the data were processed

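RNA of 9 libraries in 3 groups of 3 was analysed, with groups and days taken from the labels. In the table the authors deposited, every gene has a count (whole numbers) and an FPKM in each library. The submitters' processing notes name HISAT2 2.0.4, StringTie 1.3.4, cutadapt 1.9, FastQC 0.10.1 and a rat genome build, whereas the gene identifiers and coordinates are those of mouse GRCm38. Annotation release, counting step and strand setting were not given in the sources used here. Overlapping genes may share reads: Stat3 overlaps Stat5a at its end, and Il6ra overlaps Gm42809, both on the opposite strand. Clcf1 overlaps Gm45928 on the same strand, which had 0 counts in every library. It also overlaps Gm26115 on the opposite strand, which had 0 to 3 counts per library. Where the count is 0 the table lists an FPKM of 0.0001, which was set to 0.

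Counts as deposited were scaled by TMM and tested with edgeR 4.0.16 (quasi-likelihood, no covariate, standard errors from the F statistic) in R 4.3.3, for genes averaging 0.5 FPKM or more in the 6 libraries compared, with only the groups compared in a fit. Members below this limit were compared by two-sided exact permutation tests on CPM. Alternatives were limma 3.58.1 on log2(FPKM + 1) and log2(FPKM + 0.1), no filter, filterByExpr, DESeq2 1.42.0 as the test or for size factors alone, all 9 libraries in 1 fit, counts divided by the low-count step of each library, the replicate block, and leaving out each library. Tables were handled in Python 3.11.15 with pandas 2.3.3. In simulated counts for ICH against sham, over 16414 genes, edgeR found 51 of the 100 genes set to differ 2-fold, 82 of the 100 set to differ 4-fold and 10 unchanged genes. Over 16654 genes, for the Laminaria libraries against ICH, it found 31, 83 and 6, and over 16405 genes, against sham, 41, 84 and 13.

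The members, the 6 pathway lists and the marker lists were chosen with earlier results of these data known. All 10 members are named, and of each list the genes called and the 4 largest differences may be named. Jak1, Junb, Bcl2l1 and the genes too low to test were named after their values were seen. Some members of the lists are not reported here. For the nearest patterns, 3 genes per member were named. Promoter sequences are from RefSeq for GRCm38.p6, printed up to the first exon of GENCODE M21. The other marker lists not described (monocyte, T cell, neuron, cortical neuron, oligodendrocyte, endothelial and fibroblast) were computed alike: 2 of 3 monocyte, 2 of 5 endothelial and 1 of 3 fibroblast genes tested rose after ICH, 1 of 5 neuron genes fell, and none of the tested T cell (1), cortical neuron (2) and oligodendrocyte (4) genes was called.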

Additional observations from a re-analysis of the deposited data

How the results depend on the processing

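In ICH against sham, the fits that used all libraries kept the direction of every tested member. The number called was 5 by DESeq2 against 2 by edgeR, and over all genes DESeq2 called 3547 and the fit with the replicate block 839, against 1737. The block called 6 of the 33 other pathway genes, against 11. Leaving out 1 library gave 0 to 6 members and 0 to 2741 genes. The log2 ratio of Lifr then ranged from -0.061 (without ICH 2) to 1.58, and the CPM difference of Il6 from -0.0154 (without ICH 2) to 1.76. The causes were not tested.

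In Laminaria-treated ICH against ICH no member was called in any fit. The 3 genes called over all genes became 1 with all 9 libraries in 1 fit, 48 by DESeq2 and 0 with the replicate block, and 0 to 1 when a library was left out. The log2 ratio of Il6ra (0.04) became -0.011 and -0.088 with limma on log2(FPKM + 1) and log2(FPKM + 0.1) and -0.10 with the replicate block. Leaving out 1 library, it ranged from -0.47 to 0.46 for Il6ra, -1.09 to 0.012 for Lif, -0.56 to 0.14 for Cntf, -0.52 to 0.40 for Lifr, -0.36 to 0.072 for Stat3 and -1.26 to 0.043 for Socs3, and the CPM difference of Il6 from -1.72 to 0.0484. The highest value was the one without ICH 2 for Lif, Cntf, Lifr, Stat3, Socs3 and Il6, and without Laminaria library 2 for Il6ra.

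In Laminaria-treated ICH against sham, DESeq2 called 4 members and the replicate block 1 (Socs3), against 0. The 3 genes called over all genes became 16 with all 9 libraries in 1 fit, 5 with counts divided by the low-count step, 5 with limma on log2(FPKM + 1), 1312 by DESeq2, 302 with the replicate block, 0 with DESeq2 size factors, filterByExpr or no filter, and 0 to 9 when a library was left out. Leaving out 1 library, Il6st ranged from -0.32 to 0.15 (without Laminaria library 1), Lifr from -0.022 (without sham 3) to 1.46 and the CPM difference of Il6 from -0.0203 (without Laminaria library 2) to 0.0973.

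The correlations over genes of same-numbered ICH and sham libraries, taken as deviations from their group means, were 0.12, -0.04 and 0.10. Those of differently numbered libraries were -0.15 to 0.07. With means of 3 libraries such values cannot show whether the numbers pair the samples, and the main fits used no pairing. Where leaving out a library leaves 2 in a group, these are assumed to vary like the other group. With 3 libraries a group, Il6 was at or near the floor in every library but ICH 2, and Osm in the sham libraries only.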
